A study of Mus musculus with 36 samples.

Results

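The 9 genes described here, Gja1, Gjb6, Aqp4, Kcnj10, Slc1a2, Aldh1l1, S100b, Sox9 and Fgfr3, are genes by which resting astrocytes are commonly recognised. They were taken by symbol from a gene count matrix of 55487 genes, and all 9 were found once. They were followed through 36 bulk RNA-seq libraries from mouse retina, the unmyelinated optic nerve at the nerve head (UON, about 200 µm long) and the myelinated optic nerve behind it (MON), with 12 libraries per tissue. All mice were C57BL/6 of 2 to 4 months, without a transgene. They were naïve on both sides, or had the optic nerve of 1 eye crushed and were examined at 3 D or 2 W, or had microbeads injected into the anterior chamber of 1 eye (the glaucoma model) and were examined at 3 D, 2 W or 6 W. Each library held RNA pooled from 2 mice of 1 sex, so every group of every tissue was 1 female pool and 1 male pool (n = 2), and pool and sex cannot be told apart. The same mice gave all 3 tissues of a group. Estimated counts summed to 16.2 to 78.1 M per library.

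Astrocytes are the main glial cells of the unmyelinated nerve head, where axons of retinal ganglion cells leave the eye, and they share the myelinated nerve with oligodendrocytes. In the retina, Müller glia carry out most of the corresponding work, and true astrocytes are confined to the nerve fibre layer. Gja1 and Gjb6 encode the connexins that couple astrocytes through gap junctions. Aqp4 is the water channel and Kcnj10 the inwardly rectifying potassium channel of astrocyte endfeet, and Kcnj10 is also made by oligodendrocytes and Müller glia. Slc1a2 takes glutamate up into astrocytes, Aldh1l1 is an enzyme of folate metabolism, and S100b is a calcium-binding protein that oligodendrocyte lineage cells make too. Sox9 is a transcription factor of gliogenesis, and Fgfr3 is a receptor for fibroblast growth factors. In bulk tissue, fewer astrocytes and less RNA per astrocyte cannot be told apart.

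On GRCm38, Gja1 lies on chromosome 10 (56377330 to 56402513, plus strand) and S100b on the same chromosome (76253853 to 76261159, plus strand). Gjb6 lies on chromosome 14 (57123303 to 57133611, minus strand). The 250 bases before the RefSeq start sites of these 3 genes (RefSeq, GRCm38.p6) are shown because Gja1 differed most between the nerve regions, Gjb6 was the only member called after injury and S100b had the highest level per length in the MON. Both strands were searched for 6 motifs, and capitals mark a match to any of the first 4. The AP-1 motif was TGANTCA and the motif of NFI factors was TTGGCA. For SOX factors the letters were AACAAT, and for STAT factors they were TTCNNNGAA. The remaining motifs were the GC box, written GGGCGG, and the TATA box, written TATAAA.
Gja1, chr10:56377050-56377299, plus strand: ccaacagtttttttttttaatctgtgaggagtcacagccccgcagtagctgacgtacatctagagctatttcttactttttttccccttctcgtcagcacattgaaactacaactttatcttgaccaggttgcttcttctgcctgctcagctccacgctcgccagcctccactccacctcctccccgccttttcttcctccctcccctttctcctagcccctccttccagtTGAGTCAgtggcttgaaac
Gjb6, chr14:57133612-57133861, minus strand: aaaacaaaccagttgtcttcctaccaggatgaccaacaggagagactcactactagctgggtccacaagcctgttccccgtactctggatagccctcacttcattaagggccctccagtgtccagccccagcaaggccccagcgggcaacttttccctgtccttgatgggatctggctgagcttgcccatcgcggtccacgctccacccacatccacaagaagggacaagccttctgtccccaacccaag
S100b, chr10:76253586-76253835, plus strand: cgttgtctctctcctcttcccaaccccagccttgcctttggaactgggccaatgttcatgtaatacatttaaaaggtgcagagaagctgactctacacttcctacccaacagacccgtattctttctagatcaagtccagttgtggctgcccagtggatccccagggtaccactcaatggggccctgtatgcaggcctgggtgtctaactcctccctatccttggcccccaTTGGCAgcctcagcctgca
The Gja1 window held 1 AP-1 match starting at position -19 from the start site, a motif found in 6.75% of 32851 windows of this length. The S100b window held 1 NFI match, also from position -19, a motif found in 12.3% of windows. The Gjb6 window held none of the 6. The SOX motif is in 9.42%, the STAT motif in 7.02% and the TATA box in 12.4% of windows, and no 2 of the 6 motifs contain each other. Windows were searched for 7 of the 9 members, all but Aqp4 and Sox9. Those of Kcnj10, Fgfr3 and Aldh1l1 held GC boxes (32.7% of windows), while that of Slc1a2 held no match. The Slc1a2 window ended before position 102706438 of chromosome 2, but 97.0% of its counts in UON (median of 12 libraries) came from a transcript that starts at 102658659. A match describes letters only.

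Dissection was checked with marker lists, as the summed CPM of each list (counts scaled to library size, with TMM factors over all 36 libraries). The 10 oligodendrocyte markers summed to 64999 and 45454 CPM in the naïve MON pools and to 8235 and 6382 CPM in naïve UON, and the 8 photoreceptor markers to 58839 CPM or more in every retina library but to 440.0 CPM or less in nerve. The male UON pool at 2 W after crush stood apart, with 1489 CPM of oligodendrocyte markers against 2936 to 16648 CPM in the other 11 UON pools.

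Among nerve libraries the members were abundant, and they differed in level per length. In naïve UON, Gja1 had the highest FPKM (714 ± 88.1, mean ± SD of 2 pools), followed by S100b (452 ± 68.0) and Sox9 (132 ± 20.3). Aqp4 (67.7 ± 4.42), Aldh1l1 (52.4 ± 3.11), Gjb6 (35.7 ± 7.70), Kcnj10 (26.0 ± 0.53), Fgfr3 (21.7 ± 0.52) and Slc1a2 (10.2 ± 0.73) followed, and no neighbours in this order overlapped. In naïve MON the order opened with S100b (548 ± 74.7 FPKM), then Gja1 (156 ± 57.3) and Aqp4 (136 ± 32.7), the last 2 of which overlapped. Slc1a2 (24.5 ± 2.58 FPKM) and Kcnj10 (46.6 ± 8.34 FPKM) stood higher there than in UON, and Gjb6 came last (16.8 ± 1.33 FPKM). Sox9, Kcnj10 and Aldh1l1 overlapped their neighbours among themselves, as did Fgfr3 and Gjb6. In naïve retina the order opened with Aqp4 (29.9 ± 4.80 FPKM) and Slc1a2 (28.8 ± 0.42 FPKM), which overlapped.

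The first question was how the regions differ in naïve mice. Gja1 and Sox9 were higher in UON than in MON and Slc1a2 was lower, so 3 of the 9 members were called, against 9.63% of 23685 genes tested. Calls required a log2 fold change past 1 in either direction together with an adjusted p below 0.05 (edgeR quasi-likelihood test, Benjamini-Hochberg over all genes tested), and p-values measure only the spread between these pools. The median log2 difference of the members was 0.26, beside -0.06 for all genes.

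Gja1, the principal connexin of astrocytes, measured 2982 and 2641 CPM in naïve UON (female and male pool, the order used throughout) and 849 and 433 CPM in naïve MON. Both UON pools were above both MON pools, with a log2 difference of 2.16 ± 0.29 (SE, adjusted p = 0.0057). In the other groups the same order held: Gja1 was higher in the UON than in the MON of the same mice in 12 of 12 pools, by 1.34 to 16.8 times (median 2.60), as were 6.88% of 15940 genes.

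Sox9 measured 609 and 798 CPM in UON and 376 and 223 CPM in MON (log2 difference 1.22 ± 0.29, adjusted p = 0.045). UON was higher in 11 of 12 pools of mice. This call is near its limit, and without the male pool of naïve UON or of naïve MON the log2 difference was 0.87 or 0.78 and was not called.

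Slc1a2, the glutamate transporter, measured 121 and 128 CPM in UON and 268 and 338 CPM in MON (log2 difference -1.31 ± 0.22, adjusted p = 0.012). UON was lower in 9 of 12 pools, so the order was not kept in every injured group. Without the male pool of naïve UON adjusted p was 0.11, and with all 36 libraries in 1 fit it was 0.092. Kcnj10 lay in the same direction (178 and 183 CPM in UON, 309 and 350 CPM in MON) with an adjusted p of 0.040, but its log2 difference of -0.91 ± 0.21 was within the limit of 1.

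The other 5 members were not called between the nerve regions. Aqp4 had a log2 difference of -0.88 ± 0.27 (adjusted p = 0.097), and its level was lower in the UON than in the MON of the same mice in 11 of 12 pools. Gjb6 had 0.94 ± 0.33 (adjusted p = 0.13) and was higher in UON in 11 of 12 pools. Aldh1l1 (0.51 ± 0.21), Fgfr3 (0.26 ± 0.30) and S100b (-0.35 ± 0.24) differed by less than the limit, and UON was higher in 6, 2 and 7 of 12 pools. Gjb6 thus lay in the direction of Gja1, and Aqp4 in the opposite one, both without a call. Kcnj10, lower in naïve UON, was higher in UON in 7 of 12 pools. A share over all genes is given only for the order of Gja1, so the pool counts of the other members, Sox9 included, are descriptions only.

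**Figure D1:**
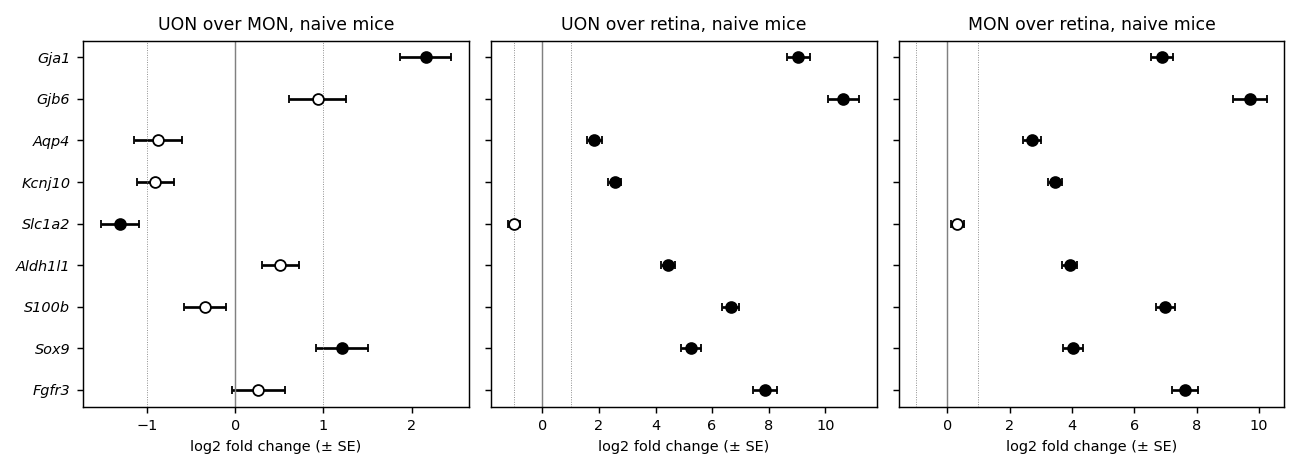
Log2 fold change (x axis, ± SE of the fit) of the 9 genes between tissues of naïve mice, 2 pools per tissue, with filled points for genes called and dotted lines at a change of 1. Gja1 (2.16) and Sox9 (1.22) lie to the right and Slc1a2 (-1.31) to the left in UON over MON, and in both comparisons with retina every gene except Slc1a2 lies far to the right.

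Genes that work beside the members were unequal too. Of 30 other astrocyte genes tested, 5 were higher in UON and 3 lower, where 4.83% of all genes tested were higher and 4.80% lower. The thyroxine transporter Slco1c1 (log2 4.21 ± 0.23) and Slc1a3, another glial glutamate transporter (2.34 ± 0.33) were among the higher, and Hepacam (-1.39 ± 0.25) among the lower. Among other gap junction genes, Gjb2, Gjc1 and Tjp1 were higher, and Gjc3 (-3.69 ± 0.24) and Gjb1 (-3.04 ± 0.30), connexins of myelinating glia, were lower. Among endfoot anchoring and aquaporin genes, Sntb1, a syntrophin (3.35 ± 0.33), Dag1 and Aqp1 were higher. The Aqp1 difference was unsteady, from 0.27 to 2.21 over other settings and fits with 1 library left out.

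Of 8 potassium handling genes, Kcnj13 was higher, and Atp1b1, Slc12a2 and Kcnk1 were lower. Of 9 glutamate handling genes, Slc1a4 was higher and Slc1a1 lower, and of 7 one-carbon and folate genes Shmt1, Mthfd2 and Aldh1l2 were lower. Of 8 other S100 genes, S100a10, S100a4, S100a6 and S100a11 were higher by log2 1.18 to 1.31. Of 11 SOX and gliogenic factors, Lhx2 was higher, and Sox10 (-4.13 ± 0.38) and Sox8 (-3.48 ± 0.23), both factors of the oligodendrocyte lineage, were lower. Of 13 FGF receptors, ligands and targets, Fgfr1 (1.99 ± 0.23), Fgf2 and Etv5 were higher. All 10 oligodendrocyte markers and 5 of 6 precursor markers were lower in UON, and 6 of 10 fibroblast and meninges markers were higher. What part those cells have in the members' differences was not tested.

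Against the retina, 8 of 9 members were called higher in MON, as were 16.7% of genes tested (27.6% were called in either direction). In UON 8 of 9 members were called higher, as were 18.2% of genes (31.7% in either direction). This serves as a check of the label, since the genes were chosen as astrocyte genes. In naïve retina Gja1 measured 5.65 and 4.73 CPM, S100b 8.62 and 8.01 CPM, Sox9 17.9 and 18.1 CPM, Aldh1l1 11.4 and 8.45 CPM and Fgfr3 0.660 and 0.243 CPM. Every nerve library lay above every retina library for these 5 genes. The log2 differences of UON over retina were 9.05 ± 0.40 for Gja1, 7.89 ± 0.42 for Fgfr3, 6.65 ± 0.30 for S100b, 5.25 ± 0.35 for Sox9 and 4.45 ± 0.25 for Aldh1l1. The retinal counts of Fgfr3 were 34 and 11, and its difference ranged from 4.36 to 8.66 over the alternatives (4.04 to 8.415 for MON over retina). The differences of MON over retina were 6.89, 7.63, 6.996, 4.04 and 3.94 in the same order. Gjb6 was at the edge of detection, with an estimated count of 5 in the female and 0 in the male naïve retina pool, and at 0 in 5 of 12 retina libraries. Its fitted log2 differences of 10.64 (UON) and 9.71 (MON) therefore depend on the prior count of the fit.

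The channels that Müller glia also make were closer between nerve and retina. Aqp4 (93.1 and 99.6 CPM in naïve retina) was higher in UON by log2 1.84 ± 0.28 and in MON by 2.72 ± 0.29. Kcnj10 (32.1 and 28.0 CPM) was higher by 2.55 ± 0.22 and 3.46 ± 0.23. Slc1a2, which retinal neurons make as well, was the exception: its 242 and 241 CPM in retina exceeded UON, so that UON over retina was -0.99 ± 0.21 (adjusted p = 0.010), just inside the limit of 1. MON over retina was 0.32 ± 0.21 (adjusted p = 0.32), and this sign turned to -0.23 on the log2(FPKM + 1) scale. Slc1a2-202 gave 93.1% of Slc1a2 counts in retina (median of 12 libraries) but 44.2% in 1 of them.

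**Figure D2:**
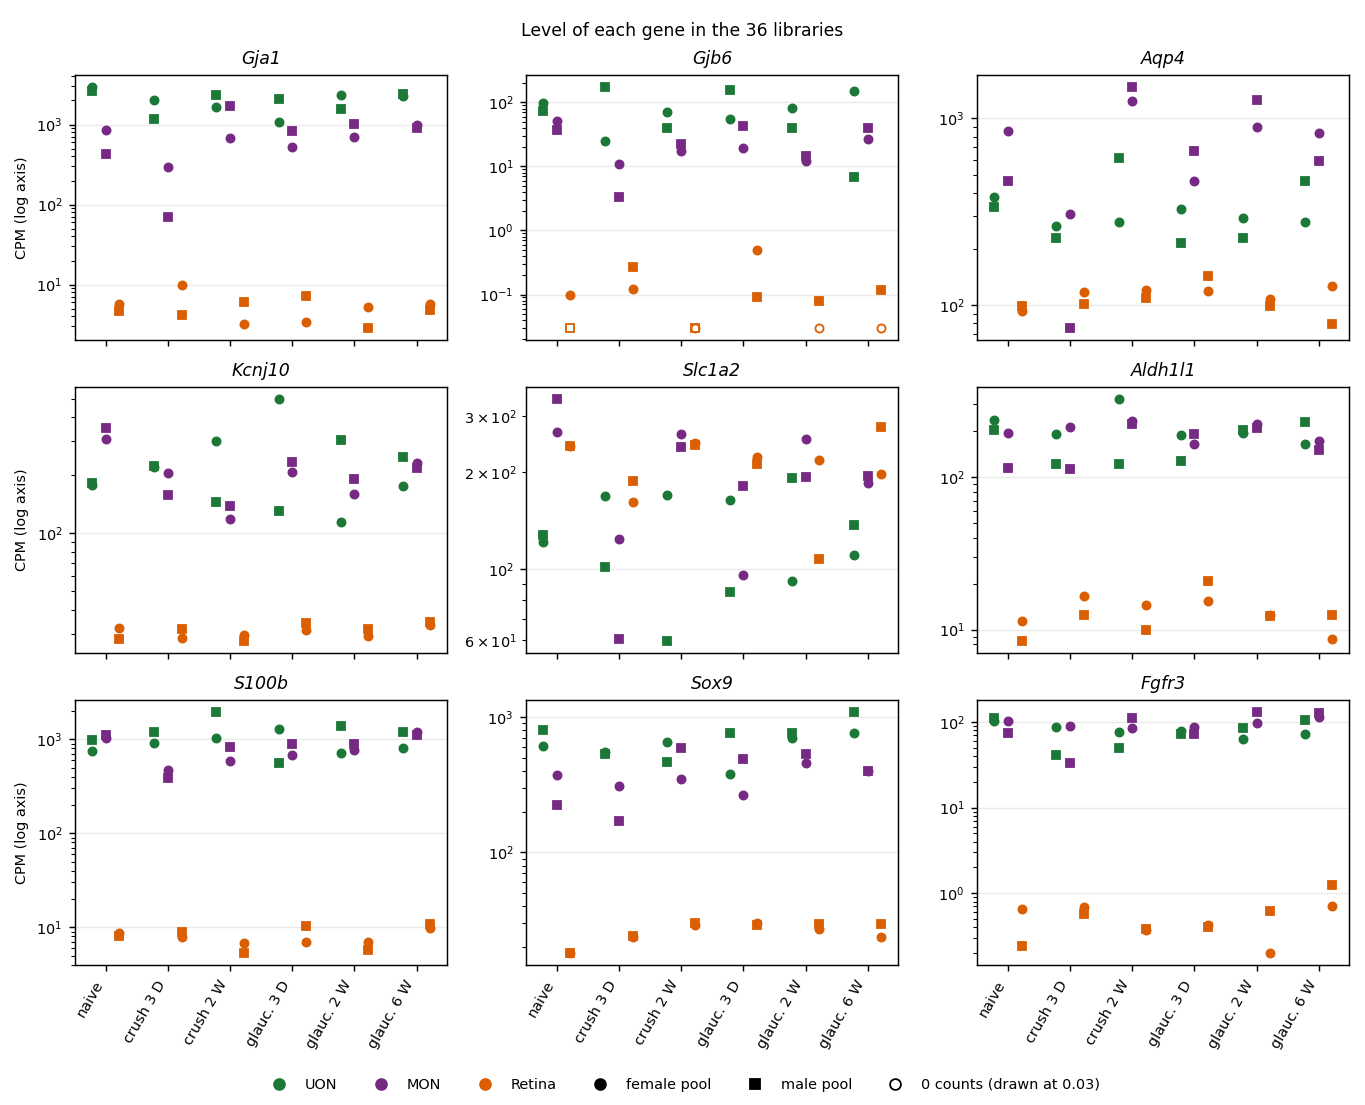
CPM (log axis) of the 9 genes in all 36 libraries, by group (x axis), tissue (colour) and pool (circle female, square male), with open symbols at 0.03 for libraries at 0 counts. The 12 UON and 12 MON libraries lie above the 12 retina libraries for every gene except Aqp4 and Slc1a2, and the male MON pool at 3 D after crush is the lowest nerve library for Gja1, Gjb6, Aqp4, S100b, Sox9, Fgfr3 and Aldh1l1.

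The second question was what injury does to the members in the MON. At 3 D after crush, 1 of 9 members was called, against 4.26% of 19988 genes. Gjb6 measured 50.6 and 37.2 CPM in naïve MON and 10.9 and 3.38 CPM at 3 D, so that both crushed pools were below both naïve pools. It fell by 2.65 ± 0.52 on the log2 scale (adjusted p = 0.036). The fall was 1.94 without the male crushed pool (adjusted p = 0.020), and it was not called with either naïve pool left out (adjusted p = 0.18 without the female pool and 0.13 without the male pool).

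Most other members had lower means at 3 D without passing the test. The median log2 change of the 9 was -1.20, beside -0.0049 for all genes tested, and 8 of 9 were below 0. Both crushed pools lay below both naïve pools for 6 of 9 members, as for 31.0% of genes. DESeq2 called 4 of 9 members: Gjb6, Aqp4, Slc1a2 and S100b, all lower. It called 6.12% of 38991 genes. Here and below, DESeq2 shares are over all genes with any count in the fit, including low-count genes that the edgeR filter removes. They cannot be set beside the edgeR shares.

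Aqp4 measured 854 and 464 CPM in naïve MON and 306 and 75.5 CPM at 3 D (log2 change -1.85 ± 0.54, adjusted p = 0.11 in edgeR and 0.00033 in DESeq2). Gja1 measured 849 and 433 CPM in naïve MON and 293 and 70.2 CPM at 3 D (-1.82 ± 0.72, adjusted p = 0.21). In both genes the male pool was far below the female pool at 3 D, and without it the Aqp4 and Gja1 changes were -1.14 and -0.98. Both genes were called when the female crushed pool or either 2 W pool was left out. Slc1a2 measured 268 and 338 CPM naïve and 124 and 60.7 CPM at 3 D (-1.69 ± 0.40, adjusted p = 0.061). S100b measured 1032 and 1098 CPM naïve and 475 and 391 CPM at 3 D (-1.20 ± 0.34, adjusted p = 0.10), with pools close to each other. Kcnj10 had a change of -0.77 ± 0.30 (adjusted p = 0.20).

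The remaining 3 members, Fgfr3 (-0.53 ± 0.43), Sox9 (-0.22 ± 0.43) and Aldh1l1 (0.15 ± 0.31), had adjusted p of 0.55 to 0.84 and pools that overlapped those of naïve MON. Whether these changes differ from those of the other members was not tested. As a share of Gfap, the filament gene of astrocytes, both crushed pools were below both naïve pools for 6 of 9 members. Gja1 was 6.69 and 4.82% of Gfap in naïve MON and 2.56 and 1.11% at 3 D, and Fgfr3 was 0.815 and 0.839% and then 0.790 and 0.518%. The exceptions were Kcnj10, Sox9 (2.96 and 2.49%, then 2.73 and 2.69%) and Aldh1l1 (1.54 and 1.28%, then 1.85 and 1.79%). As a share of Slc1a3, this was so for 3 of 9, Gja1, Gjb6 and Aqp4, while Kcnj10 was 21.4 and 48.3% in naïve MON and 20.4 and 52.0% at 3 D. The share of all genes for which this holds was not computed for either ratio. These counts therefore describe the members and cannot be read as unusual.

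At 2 W after crush none of the 9 members was called (2.72% of 19988 genes were, and 2 members and 16% of genes had an unadjusted p under 0.05). Aqp4 measured 1245 and 1480 CPM, above both naïve pools (log2 change 1.25 ± 0.53, adjusted p = 0.31). Without the female 2 W pool the Aqp4 change was 1.98 and was called (adjusted p = 0.00071), and without the male pool it was 0.27. Gja1 measured 680 and 1723 CPM (1.17 ± 0.73, adjusted p = 0.52), and its sign rests on the male pool, without which the change was -0.58, while without the female 2 W pool it was 2.29 and was called. Kcnj10 measured 118 and 138 CPM, the lowest MON group for this gene (-1.33 ± 0.30, adjusted p = 0.069 in edgeR and 0.00064 in DESeq2, which called 4.43% of genes). Gjb6 measured 17.1 and 22.5 CPM, below both naïve pools (-1.03 ± 0.48, adjusted p = 0.37), and it was called without the male 2 W pool (-1.855) or the male 3 D pool (-1.13). Sox9 (0.77 ± 0.44), Aldh1l1 (0.68 ± 0.31), S100b (-0.57 ± 0.34), Slc1a2 (-0.26 ± 0.38) and Fgfr3 (0.25 ± 0.43) had adjusted p of 0.35 to 0.86.

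From 3 D to 2 W after crush, 8 of 9 members had higher means and none was called (0.075% of genes were). The largest differences were those of Aqp4 (log2 3.10 ± 0.58, adjusted p = 0.10), Gja1 (2.98 ± 0.80, adjusted p = 0.19), Gjb6 (1.62 ± 0.51, adjusted p = 0.26) and Slc1a2 (1.43 ± 0.39, adjusted p = 0.19). DESeq2 called 3 of 9 (2.72% of genes): Aqp4, Gjb6 and Slc1a2. At an unadjusted p under 0.05 there were 4 members and 12.5% of genes. Kcnj10 was the member without a higher mean. No member was called by edgeR or DESeq2 between the last and the first time in the other models and tissues, where edgeR called 0 to 0.0485% of genes (0.00468% in crushed UON, 0.0129% in the retina of the glaucoma model). DESeq2 called 0.954% of genes in crushed UON, 0.404% in crushed retina, and 0.337, 0.457 and 0.235% in UON, MON and retina of the glaucoma model. An unadjusted p under 0.05 was found for 1 tested member in each except crushed UON, with 0, and for 4.54 to 8% of genes.

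**Figure D3:**
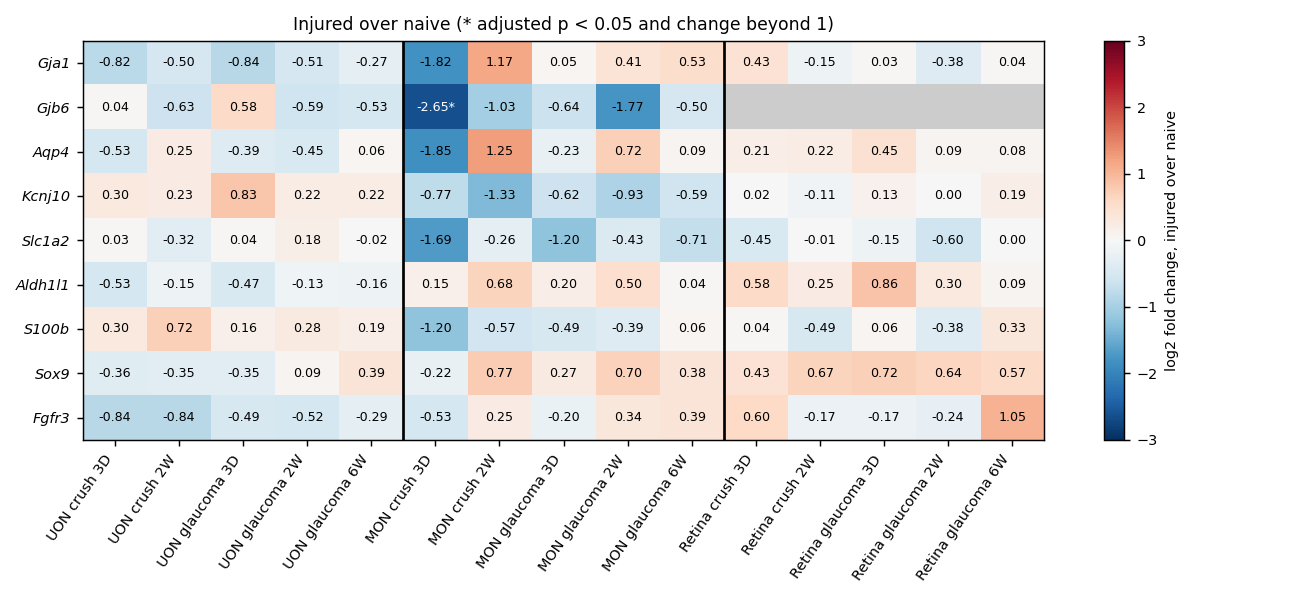
Log2 fold change of each gene (rows) in each injured group over naïve tissue (columns), 2 pools per group, with * for genes called and grey where Gjb6 had too few counts to be tested. The MON crush 3 D column holds the lowest values (-2.65 for Gjb6, -1.85 for Aqp4, -1.82 for Gja1) and the only call, and the MON crush 2 W column has Aqp4 and Gja1 above 0.

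Other genes of the MON gave the setting. At 3 D after crush none of 30 other astrocyte genes was called, with a median log2 change of -1.12, and their sum was 8250 and 3975 CPM against 16387 and 12053 CPM in naïve MON. The male crushed pool was thus low for this list as it was for the members. Of 14 reactive astrocyte genes, Timp1 (4.43 ± 0.42), Cd44 (2.37 ± 0.27) and Nes (1.55 ± 0.30) rose, where 3.61% of all genes were called higher and 0.655% lower. Among genes close to the members in function, the water channel Aqp1 (6.70 ± 1.01), S100a10 (1.63 ± 0.31), S100a11 (1.47 ± 0.29) and Dusp6, a target of FGF signalling (2.21 ± 0.37), rose. No potassium handling, glutamate handling, folate or SOX list gene was called at 3 D.

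Markers of other cells moved in the same libraries. All 9 proliferation genes rose, and 3 of 12 microglia and macrophage markers did (Ms4a7, Cd68 and Trem2). The microglia and macrophage sum was 4297 and 5467 CPM at 3 D, and 1693 and 1948 CPM in naïve MON. The fibroblast and meninges sum was 625 and 974 CPM against 634 and 472 CPM, with Igf2 lower by 6.73 ± 0.65. The oligodendrocyte sum was 35934 and 27802 CPM, and none of its 10 genes was called. At 2 W, 6 of 12 microglia and macrophage markers, 5 of 9 proliferation genes and 3 of 14 reactive astrocyte genes were higher (2.13% of all genes were), and Gjc3 (-1.63 ± 0.30) and Mog (-1.67 ± 0.32) were lower (0.595% were). No other astrocyte gene was called at 2 W. Their part in the members' values was not tested.

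In the glaucoma model, no member was called in the MON at 3 D, 2 W or 6 W, where no gene at all was called by edgeR in this tissue (unadjusted p was under 0.05 for 2, 2 and 1 members and for 8.07, 8.78 and 4.91% of genes). DESeq2 called 1 member at 3 D (1.09% of genes) and 1 at 2 W (1.26%) and none at 6 W (0.165%). Slc1a2 measured 95.6 and 181 CPM at 3 D, below both naïve pools (log2 change -1.20 ± 0.31, adjusted p = 0.43 in edgeR and 0.022 in DESeq2). Gjb6 measured 12.1 and 14.5 CPM at 2 W, also below both naïve pools (-1.77 ± 0.35, adjusted p = 0.29 and 0.00064). Kcnj10 had -0.93 ± 0.21 at 2 W (adjusted p = 0.30). By 6 W the 9 changes lay between -0.71 and 0.53, with the lowest adjusted p at 0.85.

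Kcnj10 and Slc1a2 had 1 feature in common across both models. In all 10 injured MON pools their levels were below both naïve pools: Kcnj10 ranged from 118 to 234 CPM (median 199) and Slc1a2 from 60.7 to 263 CPM (median 189). This holds for 4.16% of 15962 genes in MON, and all 5 comparisons share the same 2 naïve pools. The pool with the lowest oligodendrocyte marker sum of the MON (female, 2 W after crush, 16951 CPM) also had the lowest Kcnj10, but of the naïve pools the female one had the higher marker sum (64999 and 45454 CPM) and the lower Kcnj10 (309 and 350 CPM). The part of oligodendrocytes in the Kcnj10 values was not tested.

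Crush and glaucoma were also compared directly. At 3 D all 9 members had lower means in crushed than in bead-injected MON. Their median log2 difference was -0.58, beside -0.05 for all genes tested, and the low male crushed pool enters each value. None was called by edgeR (0.0162% of 24738 genes were, and 4 members and 10.4% of genes had an unadjusted p under 0.05). Gjb6 differed by -2.06 ± 0.56, Gja1 by -1.89 ± 0.67, Aqp4 by -1.65 ± 0.55 and S100b by -0.80 ± 0.25, with adjusted p of 0.36 to 0.38. DESeq2 called the first 3 of these (1.33% of genes). At 2 W the differences lay between -0.44 and 0.60, and none was called (0.0485% of genes by edgeR, 0.857% by DESeq2). In UON no member was called at 3 D or 2 W by edgeR (0 and 0.0418% of genes) or DESeq2 (0.0286 and 1.28%). The same held in retina (0.0081 and 0.113% by edgeR, 0.0843 and 0.426% by DESeq2), and no member had an unadjusted p under 0.05 in either tissue.

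In UON no member was called in any of the 5 injured groups, by edgeR or DESeq2 or under any alternative run (edgeR called 0 to 0.0281% of genes, and DESeq2 0.56 and 1.37% after crush and 0.325, 0.191 and 0.0831% in the glaucoma model). No member had an unadjusted p under 0.05 in edgeR, and 2.01 to 9.27% of genes did. Changes lay between -0.84 and 0.83 on the log2 scale. Pools of a group often differed by more than the groups did, so a change of the size seen in the MON could be missed for some genes: the SE was 0.78 to 1.15 for Gjb6 and 0.25 to 0.42 for Gja1, Aqp4, Aldh1l1, Sox9 and Fgfr3.

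Gja1 was nevertheless below both naïve pools in all 10 injured UON pools, from 1067 to 2443 CPM (median 2049), as were 1.07% of 15562 genes. Its largest changes were -0.84 ± 0.37 at 3 D in the glaucoma model and -0.82 ± 0.40 at 3 D after crush (adjusted p = 1 for both). The 5 comparisons share the naïve pools, so this is 1 position of 2 naïve libraries and not 5 findings. The pools of 6 W glaucoma, 2248 and 2443 CPM, came closest to the naïve 2982 and 2641 CPM.

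Gjb6 was the most variable member in UON, from 6.74 CPM in the male pool at 6 W of glaucoma to 176 CPM in the male pool at 3 D after crush. The 2 pools of 1 group differed most at 6 W (152 and 6.74 CPM). Gjb6 is made by meningeal fibroblasts as well as astrocytes, and the pools at both ends also had the lowest and the highest sum of 10 fibroblast and meninges markers, 2330 and 6531 CPM. The part of that tissue in the Gjb6 values was not tested.

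Kcnj10 varied from 114 to 496 CPM in UON, and both ends lie in the glaucoma model (female pool at 2 W and female pool at 3 D). The oligodendrocyte marker sum was 16648 CPM in the pool with the highest Kcnj10, the highest sum of any UON pool. The pool with the lowest sum, 1489 CPM, had 145 CPM of Kcnj10. The Kcnj10 change at 3 D of glaucoma, 0.83 ± 0.68, turned to -0.80 without the female pool of that group. S100b was highest in the male pool at 2 W after crush (1953 CPM), the library that stood apart for its few oligodendrocyte transcripts. Aldh1l1 (121 CPM) and Slc1a2 (59.9 CPM) had their lowest UON values there. The part of oligodendrocytes in these values and in those of Kcnj10 was not tested. S100b overlaps Dip2a on the other strand by 1731 bases, and since strand is not given in the sources used here, reads there could belong to either gene.

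**Figure D4:**
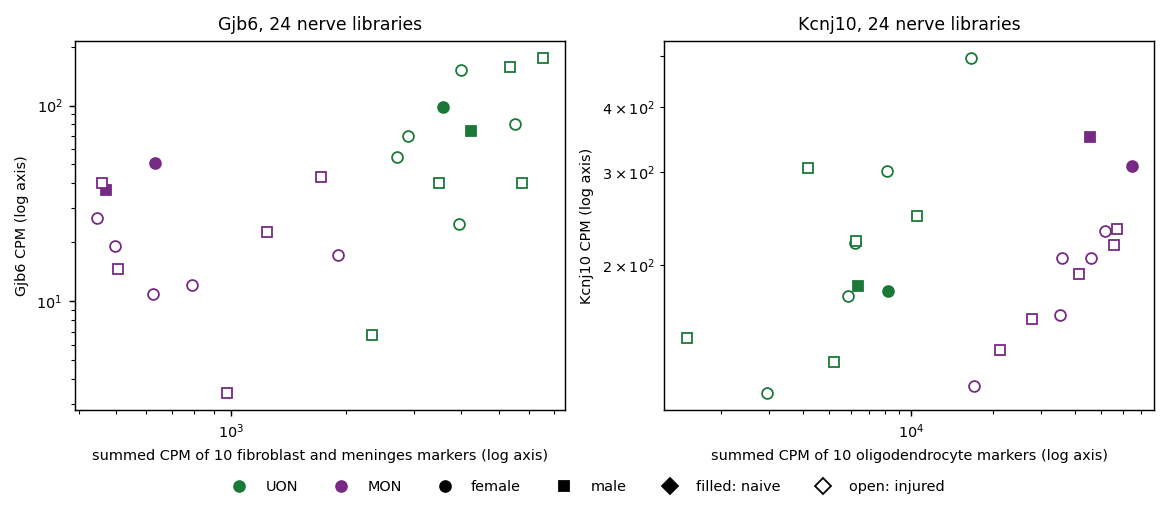
Gjb6 CPM against the summed CPM of 10 fibroblast and meninges markers (left) and Kcnj10 CPM against that of 10 oligodendrocyte markers (right), log axes, 24 nerve libraries. The UON pools with the lowest (6.74 CPM) and highest (176 CPM) Gjb6 are also lowest and highest in marker sum, and the female MON pool at 2 W after crush (118 CPM) is the lowest MON pool for both Kcnj10 and oligodendrocyte markers.

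Whether UON and MON respond unequally was tested by the interaction of tissue and injury. None of 9 members passed in any of 5 interactions by edgeR (0 to 0.012% of genes did). After crush at 3 D, 4 members and 6.93% of genes had an unadjusted p under 0.05, and the response of UON exceeded that of MON for Gjb6 (log2 2.90 ± 1.11, adjusted p = 0.63), Slc1a2 (1.86 ± 0.61, adjusted p = 0.53) and S100b (1.53 ± 0.47, adjusted p = 0.49). At 2 W after crush, Kcnj10 differed by 1.62 ± 0.49 (adjusted p = 0.26). DESeq2 called S100b at 3 D (0.677% of genes, adjusted p = 0.045) and Kcnj10 at 2 W (1.44%, adjusted p = 0.038), and none in the glaucoma model (0.138, 0.276 and 0.0711%). Differences in response from the retina, a test added after the data had been seen, gave no call for UON or MON either, where 0.882% of genes were called for MON at 3 D after crush, 0.622% at 2 W, and 0.0115 and 0.0689% for UON. Leaving aside Gjb6 and Fgfr3, whose retinal counts are too few, the MON response at 3 D after crush had log2 differences from that of retina of -0.46 (Aldh1l1) to -2.23 (Gja1), and the lowest adjusted p was 0.11 (S100b).

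In the retina no member was called after injury, by edgeR (0.0221 and 0.313% of genes after crush, 0.00429, 0 and 0.00858% in the glaucoma model) or DESeq2 (0.338, 0.867, 0.409, 0.253 and 0.292%). Gjb6 was not tested there for lack of counts. Of the 8 members tested, 3 and 1 after crush and 2, 1 and 1 in the glaucoma model had an unadjusted p under 0.05, as had 6.34, 8.99, 6.09, 6.29 and 5.67% of genes. Kcnj10 varied least, between 27.5 and 34.7 CPM over 12 libraries, and Aqp4 stayed between 79.1 and 144 CPM. The highest library was 2.07 times the lowest for S100b, 2.47 for Aldh1l1, 2.59 for Slc1a2, 3.47 for Gja1 and 6.25 for Fgfr3.

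Sox9, which Müller glia and retinal astrocytes make, was above both naïve pools (17.9 and 18.1 CPM) in all 10 injured retina pools, from 23.6 to 30.0 CPM (median 29.1). This was so for 2.34% of 16217 genes. The log2 change was 0.43 ± 0.15 and 0.67 ± 0.15 at 3 D and 2 W after crush, and 0.72 ± 0.19, 0.64 ± 0.19 and 0.57 ± 0.19 at 3 D, 2 W and 6 W of glaucoma. Adjusted p was 0.18 to 0.86, so Sox9 was not called, and its changes were all within 1. The naïve pools are shared by all 5.

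Aldh1l1 measured 15.5 and 20.9 CPM at 3 D of glaucoma and 11.4 and 8.45 CPM in naïve retina (0.86 ± 0.28, adjusted p = 0.73). Slc1a2 counts were 162 and 188 CPM at 3 D after crush, below 242 and 241 CPM in naïve retina (-0.45 ± 0.11, adjusted p = 0.47), but on the log2(FPKM + 1) scale the sign was opposite (0.41). Its direction in retina therefore depends on the scale. Fgfr3 lay at 0.198 to 1.24 CPM in retina, too low for its changes to be read.

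Over the 12 MON libraries, Pearson's r of log2 CPM had a median of 0.60 over 36 pairs of members, and 25 pairs exceeded 0.5. The closest were Gja1 and Aqp4 (0.95), Gja1 and Fgfr3 (0.88) and Gja1 and Sox9 (0.87). Kcnj10 had 0.03 with Gja1, -0.11 with Aqp4 and -0.46 with Aldh1l1, but 0.59 with Gjb6 and 0.58 with S100b. Over the 12 UON libraries the median was -0.03, with 6 pairs above 0.5 and 18 below 0. The closest pair there was Kcnj10 and Slc1a2 (0.77) and the most opposed Gja1 and Kcnj10 (-0.70). In retina the median was 0.15. These are descriptions over libraries that share groups and, within a tissue, dissection, and the low male MON pool at 3 D after crush enters every MON pair.

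**Figure D5:**
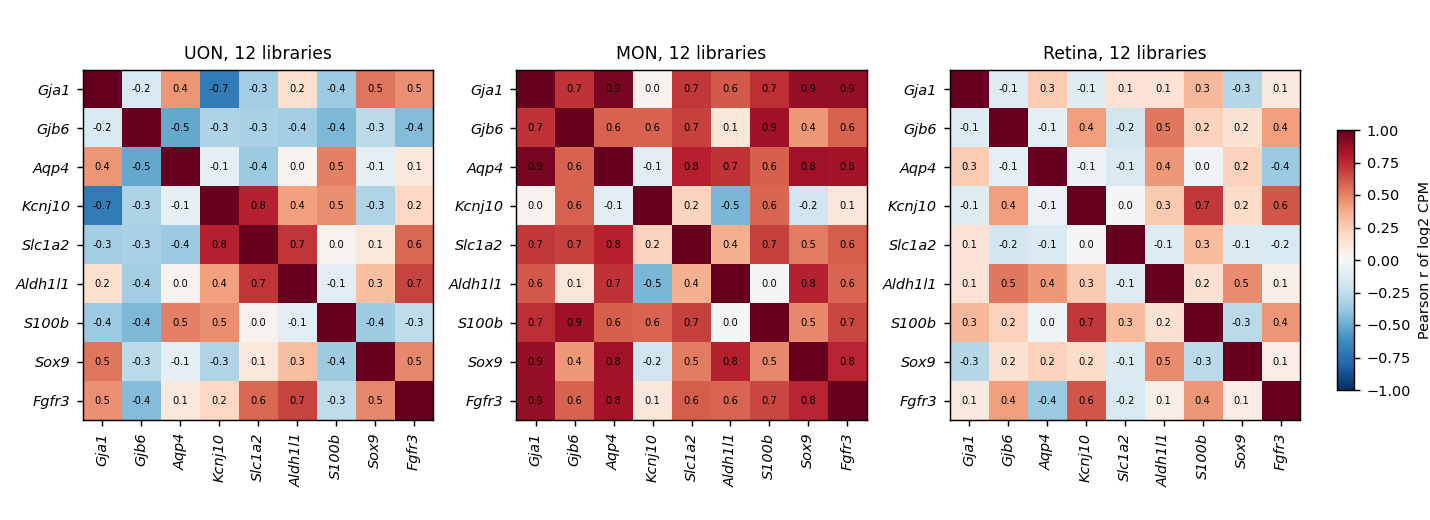
Pearson's r of log2 CPM for each pair of genes over the 12 libraries of each tissue. MON (middle) is mostly red, with a median of 0.60 and its lowest value for Kcnj10 and Aldh1l1 (-0.46). UON (left, median -0.03) and retina (right, median 0.15) are mixed.

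The genes most like each member were sought over the 24 nerve libraries, each region centred on its mean, among 10184 genes above 10 CPM. For Gja1 they were Aldh1a1 (r = 0.95), the endothelin receptor Ednrb (0.95) and Itih5 (0.94). For Aqp4 they were Slc22a4 (0.92), Gpr37l1 (0.92), a receptor of astrocytes, and Angpt1 (0.91). In the same order, r with Aqp4 was 0.80, 0.51 and 0.68 in UON alone, and 0.96, 0.98 and 0.98 in MON alone. For Gjb6 the closest genes were the cell cycle inhibitor Cdkn1c (0.93), Ppp1r1a (0.90) and the prostaglandin D synthase Ptgds (0.90). None of these 3 was among the genes most like Gja1.

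For Kcnj10 the closest were Pde8a (0.94), Slain1 (0.93) and Git1 (0.91), and for Slc1a2 Adam11 (0.88), Nrbp2 (0.86) and Zfp462 (0.84). S100b was closest to Ankra2, Hspb8 and Morn2, Sox9 to Pttg1ip, Tcp11l2 and St6galnac6, Fgfr3 to Mpv17l, Ttyh1 and Reep1, and Aldh1l1 to Plcd1, Shpk and Tmco4 (0.75 to 0.83). No gene was among the 3 closest of more than 1 member. The libraries behind each r share their groups and their dissection, and the low male MON pool at 3 D after crush is among them.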

How the data were processed

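The authors aligned reads with HISAT2 (2.2.1) to GRCm38 and quantified Gencode genes with StringTie (1.3.0). The deposited matrix holds estimated counts per gene, rounded to whole numbers, and the deposited per-library tables hold FPKM, with some values below 0 in 13 files. CPM used TMM factors over all 36 libraries. Calls came from edgeR (4.0.16) quasi-likelihood fits of all genes passing filterByExpr, with Benjamini-Hochberg adjustment. Naïve and injury fits had a sex term, which is the pool of mice only in the naïve fit across tissues. DESeq2 (1.42.0), limma (3.58.1) on log2(FPKM + 1 or 0.1), other scaling and filters, and leaving out each library were alternatives. Shares of genes called by DESeq2 are over all genes with any count, and those of edgeR over genes passing the filter. The fits were tested on simulated data. Named genes were the 9 members, called genes of the lists and the 3 genes most correlated with each member. The members and lists were chosen with earlier results of these data known. Depth (16.2 to 78.1 M per library, 17.8 and 78.1 M in naïve MON) limits genes near 0, such as Gjb6 in retina. The same mice gave UON and MON, and deviations of same-sex pools correlated at 0.017 to 0.29 across genes. The strand setting is not given in the sources used here. Some genes of the lists are not reported here.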

Additional observations from a re-analysis of the deposited data

How the results depend on the processing

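Members called between naïve UON and MON numbered 3, and 1 to 4 with 1 library left out (1 without the male naïve UON pool). In the MON after injury 1 member call was made over the 5 comparisons. DESeq2 made 7, no filter on low counts 5, a fit without the sex term 3, 1 fit of all 12 libraries 4 and limma 3 with either pseudocount, and leaving out 1 library gave 0 to 8 (0 without either naïve pool, 8 without the female pool at 2 W after crush). The last against the first time gave 0 calls, 3 with DESeq2, 4 without a filter and 0 to 6 with 1 library left out. Crush against glaucoma gave 0, 3 with DESeq2, 3 without a filter and 0 to 3 with 1 library left out. The difference between UON and MON in response gave 0, 2 with DESeq2 and 3 without a filter. With the pool of mice as a replicate block in the response fits the count stayed at 0. Without the replicate block the naïve count stayed at 3. Neither count thus changed with pairing, and no pool block was fitted for the other comparisons. The cause of these differences was not tested. A lone pool is assumed to vary like the other groups.

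Signs turned for Slc1a2 in MON over retina (-0.23 and -0.24 by limma) and in retina at 3 D after crush (0.41 and 0.42 by limma). With 1 library left out, Fgfr3 in naïve UON over MON ranged from -0.20 to 0.67 and Kcnj10 in UON at 3 D of glaucoma from -0.80 to 1.76. In MON at 3 D after crush Sox9 ranged from -0.74 to 0.15, Fgfr3 from -1.35 to 0.085 and Aldh1l1 from -0.12 to 0.36. At 2 W Aqp4 ranged from 0.27 to 1.98, Gjb6 from -1.855 to -0.39, Gja1 from -0.58 to 2.29, Sox9 from -0.093 to 1.497, Slc1a2 from -0.69 to 0.29 and Fgfr3 from -0.52 to 0.86. The cause was not tested.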
